A study of Rattus norvegicus with 6 samples.

Results

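The genes described here are CC chemokines and their receptors, secreted signals and receptors that direct leukocytes, with Ccl2, Ccl7 and Ccr2 drawing monocytes into injured myocardium. The set holds 10 genes, of which 7 ligands and 1 receptor (Ccl2, Ccl3, Ccl4, Ccl5, Ccl7, Ccl11, Ccl20 and Ccr2) were found by symbol among the 28293 genes of the expression table. Ccl6 and Ccr1 were not matched by symbol and were not analysed here. The genes were chosen by symbol with the I/R and sham values of these same libraries in view, so their levels and differences are given as a description and carry no test.

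Myocardial tissue of wild-type male rats was profiled by RNA sequencing in 3 sham rats and 3 rats with ischemia/reperfusion (I/R). In the I/R group the left anterior descending coronary artery was tied for 30 min and the heart was taken after 6 h of reperfusion. Sham rats carry the same times in their labels, and the labels do not say which region of the myocardium was sampled. Values are FPKM (fragments divided by gene length in kilobases and by library size), so levels of different genes can be compared per length.

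CC chemokines are small secreted proteins that bind G protein-coupled receptors on leukocytes and direct their movement. Ccl2 and Ccl7 are the main ligands of Ccr2, the receptor through which inflammatory monocytes leave the marrow and enter tissue, and in the heart this axis is known for monocyte entry after infarction. Ccl3, Ccl4 and Ccl5 attract macrophages and T cells, Ccl11 attracts eosinophils through Ccr3, and Ccl20 is the ligand of Ccr6.

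The FPKM values moved in whole steps of 1 fragment, which gave library totals of 42221000, 49848000 and 47945000 fragments for the sham hearts and 36848000, 39481000 and 37206000 for the I/R hearts, to the nearest 1000. Mitochondrially encoded mRNAs, 13 in number, took from 80.1% to 86.2% of the summed FPKM in the sham group and from 61.8% to 71.5% in the I/R group, and the median log2 difference of the 10942 genes tested was 0.29. Of 6 cardiomyocyte markers with a row, 5 were called higher in the I/R group, where 25.5% of all genes tested were. The summed FPKM of the 6 ran from 3219 to 10510 in sham and from 21170 to 30371 in I/R hearts. The part of these shifts in the differences below was not tested beyond the rescalings given with them.

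Across the 8 genes, every I/R rat was above every sham rat in 3 (Ccl2, Ccl7 and Ccl20) and below in 2 (Ccl5 and Ccr2). Over all genes tested, those shares were 37.2% above and 13.0% below. The filter on low values was passed by 6 of the 8, and Ccl11 and Ccl20 fell under it. The median log2 difference over the 8 was 0.22, beside 0.29 over all genes tested, and the members differed widely among themselves, from 5.56 for Ccl2 to -1.33 for Ccr2.

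**Figure D1:**
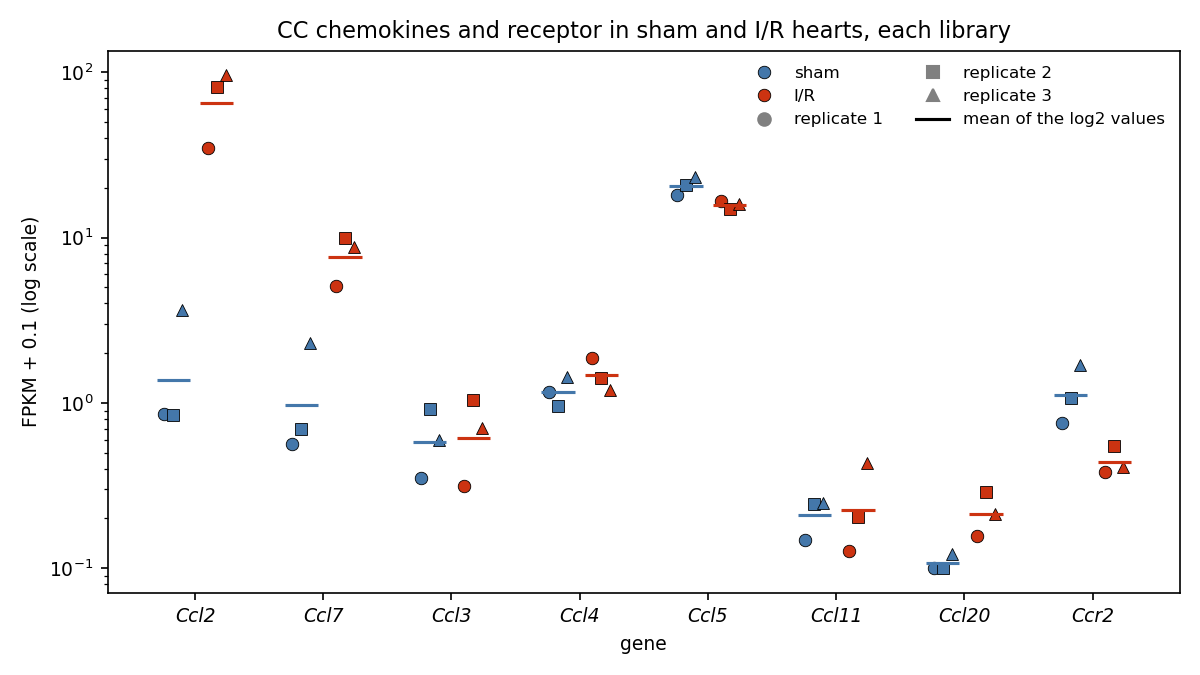
FPKM + 0.1 on a log axis for the 8 genes, with a point for each library (blue sham, red I/R, marker shape by replicate) and a bar at the mean of the log2 values of a group. Ccl2 and Ccl7 of all I/R libraries sit above the sham libraries, Ccr2 and Ccl5 sit below, and Ccl3, Ccl4 and Ccl11 overlap.

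Ccl2, the principal monocyte attractant, was at 0.755, 0.742 and 3.54 FPKM in sham replicates 1 to 3 and at 34.9, 81.5 and 95.9 FPKM in I/R replicates 1 to 3. Sham replicate 3 stood above the other sham hearts, I/R replicate 1 was the lowest of its group, and the groups were far apart. The sham libraries held 25, 29 and 133 Ccl2 fragments and the I/R libraries 1008, 2522 and 2798. The lowest sham value, 0.742 FPKM in replicate 2, rests on 29 fragments. The means were 1.68 ± 1.61 FPKM (SD, n = 3) in sham and 70.8 ± 31.9 FPKM (SD, n = 3) in I/R, a ratio of 42.2, and the log2 difference of 5.56 ranked 5 among the 10942 genes tested.

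Ccl7, another ligand of Ccr2, was at 0.466, 0.591 and 2.20 FPKM in sham replicates 1 to 3 and at 5.03, 9.83 and 8.72 FPKM in I/R replicates 1 to 3. The same sham heart, replicate 3, was again the highest of its group, and no I/R heart fell to its level. Group means were 1.09 ± 0.969 FPKM (SD, n = 3) and 7.86 ± 2.51 FPKM (SD, n = 3), a ratio of 7.23, and the log2 difference of 2.99 ranked 60. Ccl2 and Ccl7 were of similar level in sham hearts and not in I/R hearts. Within a library the Ccl2 to Ccl7 ratio was between 1.25 and 1.62 in sham hearts and between 6.93 and 11.0 in I/R hearts.

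In the RefSeq gene order of the rat assembly GRCr8, Ccl2, Ccl7, Ccl11, Ccl12 and Ccl1 lie next to one another. Large differences were seen in Ccl2 and Ccl7, while the neighbours Ccl11, Ccl12 and Ccl1 had log2 differences of 0.10, -0.36 and 0.39 with overlapping groups. These neighbours had at most 12, 9 and 29 fragments in a library, where small differences cannot be seen. A promoter window was held for 5 of the 10 genes (Ccl6, Ccl7, Ccl20, Ccr1 and Ccr2), and none was held for Ccl2. The Ccl7 window is shown because Ccl7 is the gene with a large difference whose promoter could be read, and it covers the 250 bases before the start (RefSeq, GRCr8, chr10:67513845-67514094, plus strand), with matches to 3 motifs in capitals.
Ccl7: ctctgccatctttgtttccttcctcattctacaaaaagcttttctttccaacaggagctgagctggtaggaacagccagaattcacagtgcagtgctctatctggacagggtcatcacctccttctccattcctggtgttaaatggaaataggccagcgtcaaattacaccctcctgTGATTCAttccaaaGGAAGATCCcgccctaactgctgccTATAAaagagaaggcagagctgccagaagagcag
The capitals mark, from left to right, the AP-1 motif TGANTCA at positions -73 to -67, which reads on both strands, the NF-kB core GGANNTTCC on the minus strand at positions -59 to -51, and a TATAA at positions -34 to -30, with position -1 the last base before the start. Searched on both strands in the same 250 bases of 33469 rat promoters, TGANTCA was held by 6.34%, GGANNTTCC by 3.36% and TATAA by 24.0%. Of the 5 windows, Ccl7 alone held the NF-kB core and the AP-1 motif, and 3 (Ccl6, Ccl7 and Ccl20) held TATAA. These matches are letters in a reference sequence and were not measured as bound sites.

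Ccl5, a chemokine made by T cells and other cells that attracts T cells and monocytes, was the highest of the 8 genes in sham hearts, at 18.1, 20.6 and 23.2 FPKM. I/R hearts were at 16.5, 14.8 and 16.0 FPKM, all below the lowest sham heart by a small margin. The fragments behind these values numbered 914, 1233 and 1333 in sham and 729, 702 and 713 in I/R libraries, and the means were 20.6 ± 2.57 FPKM in sham and 15.8 ± 0.855 FPKM in I/R (SD, n = 3 each), a log2 difference of -0.38. Rescaled to TPM, the Ccl5 groups overlapped and the log2 difference was -0.18.

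T and NK cell markers were read beside Ccl5. Of the 8 listed, 7 had a row, 6 passed the filter and 2 were called lower, where 7.36% of all genes tested were. These were Cd3g, a chain of the T cell receptor complex (log2 difference -1.25, SE 0.309, limma adjusted p = 0.014), and Cd8a, the co-receptor of cytotoxic T cells (-1.73, SE 0.313, limma adjusted p = 0.0049). The call of Cd3g was lost without sham replicate 3 (limma adjusted p = 0.058). The other 4 tested were not called, Cd3d and Gzma at -0.96 and -0.51 and the cytotoxic granule genes Nkg7 and Prf1 at 0.31 and 0.55. The summed FPKM of the list was between 13.6 and 20.9 in sham and between 11.6 and 15.1 in I/R hearts, and none of the 7 was at 0 in all libraries. The Ccl5 to Cd3g ratio was between 4.28 and 5.69 in sham and between 6.83 and 13.8 in I/R hearts, and the part of T cell content in the Ccl5 difference was not tested. In bulk tissue, fewer cells of a type and less RNA per cell cannot be told apart.

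Ccl3, which like Ccl4 attracts macrophages and T cells, was at 0.251, 0.825 and 0.498 FPKM in sham and at 0.216, 0.941 and 0.606 FPKM in I/R hearts. The groups overlapped, with 8, 31 and 18 against 6, 28 and 17 fragments. Ccl4 was at 1.07, 0.859 and 1.33 FPKM in sham and at 1.77, 1.32 and 1.09 FPKM in I/R hearts, again with overlap. Their log2 differences were 0.09 and 0.33, beside 0.29 for the median of all genes. Ccl5, Ccl9, Ccl6, Ccl3 and Ccl4 lie next to one another in GRCr8, and the log2 differences of the 4 with a row ran from -0.38 to 0.33.

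Ccl11, the eosinophil attractant, was at 0.0486, 0.144 and 0.150 FPKM in sham and at 0.0278, 0.104 and 0.331 FPKM in I/R hearts, which is 2, 7 and 7 against 1, 4 and 12 fragments. At this depth no difference was detectable. Its receptor Ccr3 was near 0, with at most 2 fragments in any library.

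Ccl20, the ligand of Ccr6 on lymphocytes and dendritic cells, was at 0, 0 and 0.0222 FPKM in sham and at 0.0577, 0.188 and 0.114 FPKM in I/R hearts. That is 1 fragment over the 3 sham libraries against 2, 7 and 4 in the I/R libraries, and the exact Poisson intervals of the single libraries overlapped (upper limit 5.57 fragments for sham replicate 3, lower limit 0.24 for I/R replicate 1). Pooled over libraries and scaled to depth, the ratio of I/R to sham was 16.0 (95% exact interval 2.41 to 681, counting error only). That interval leaves out the spread between rats, so it is a description and no test of the groups. Centred on the median, the Ccl20 groups overlapped. The receptor Ccr6 had 7, 4 and 6 fragments in the sham libraries and 1, 3 and 0 in the I/R libraries.

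The 7 ligands together summed to 20.6, 23.8 and 30.9 FPKM in sham and to 58.5, 109 and 123 FPKM in I/R hearts. Ccl5 made up 87.5%, 86.7% and 75.0% of that sum in sham replicates 1 to 3 and 28.2%, 13.6% and 13.0% in I/R replicates 1 to 3. Ccl2 made up 3.66%, 3.12% and 11.4% in sham and 59.6%, 75.0% and 78.1% in I/R hearts. The leading ligand of the set was therefore Ccl5 in each sham heart and Ccl2 in each I/R heart.

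Over all 19 CC ligands with a row the most abundant in sham was Ccl21, the ligand of Ccr7 made by lymphatic and lymphoid stromal cells, with 74.8% to 78.7% of the summed FPKM. In I/R hearts Ccl21 held 33.4% to 42.2% and Ccl2 32.5% to 46.9%, with Ccl2 ahead in I/R replicate 3 only. Ccl21 itself was at 75.7, 97.0 and 153 FPKM in sham and at 38.7, 86.3 and 68.3 FPKM in I/R hearts, with overlap (log2 difference -0.77, SE 0.358, limma adjusted p = 0.13, and 0.03, called lower, with the replicate block).

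**Figure D2:**
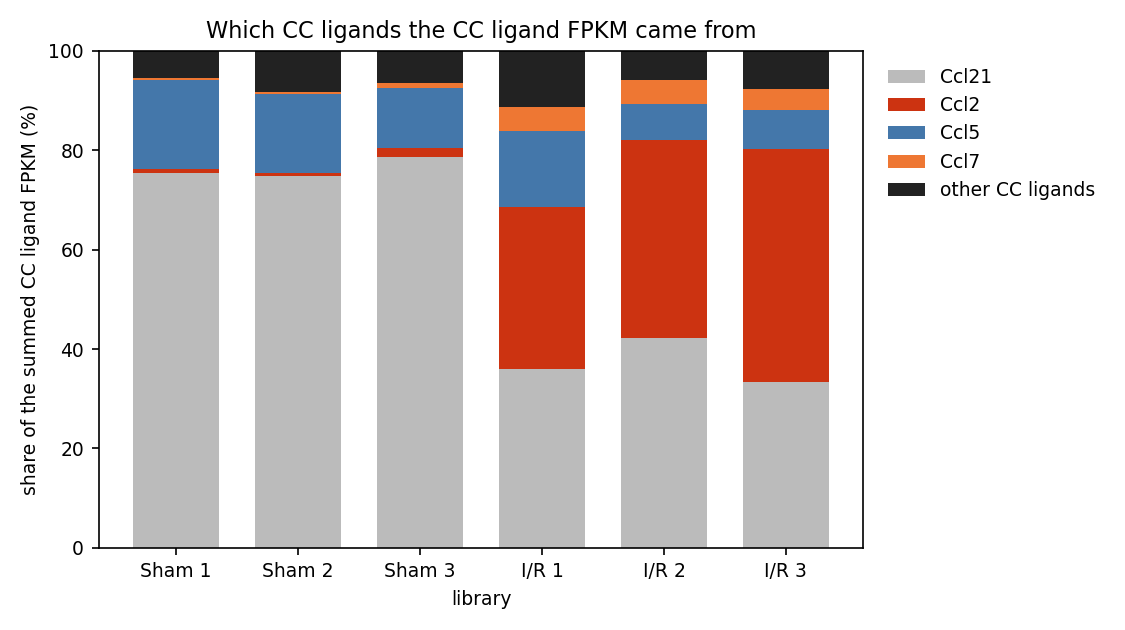
Share of the summed FPKM of 19 CC ligands (percent, stacked to 100) held by Ccl21, Ccl2, Ccl5, Ccl7 and the other ligands, for each of the 6 libraries. Ccl2 goes from between 0.572% and 1.82% in sham to between 32.5% and 46.9% in I/R hearts.

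Ccr2, the receptor of Ccl2 and Ccl7 on monocytes, went the other way from its ligands. It was at 0.658, 0.974 and 1.59 FPKM in sham replicates 1 to 3 and at 0.282, 0.451 and 0.308 FPKM in I/R replicates 1 to 3, from 131, 229 and 360 against 49, 84 and 54 fragments. All I/R hearts were below the lowest sham heart, and sham replicate 3 was the highest, as it was for Ccl2 and Ccl7. The means were 1.08 ± 0.475 FPKM in sham and 0.347 ± 0.0912 FPKM in I/R (SD, n = 3 each), 3.10-fold lower in I/R, a log2 difference of -1.33 that ranked 10590 of 10942. The Ccl2 to Ccr2 ratio of a library was between 0.762 and 2.22 in sham and between 124 and 312 in I/R hearts.

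The 250 bases before the Ccr2 start (RefSeq, GRCr8, chr8:132611953-132612202, plus strand) are shown as the promoter of the gene that was lower, beside that of Ccl7. None of the 3 motifs was in this window, so it has no capitals.
Ccr2: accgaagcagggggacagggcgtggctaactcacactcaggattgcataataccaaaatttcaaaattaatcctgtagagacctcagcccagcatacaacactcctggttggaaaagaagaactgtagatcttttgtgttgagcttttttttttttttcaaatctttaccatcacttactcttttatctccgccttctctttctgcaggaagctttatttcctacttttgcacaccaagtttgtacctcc
No match says only that these letters are not in this window. Near Ccr2 in GRCr8 lie Ccr3 and Ccr1l1, which had log2 differences of -0.05 and -0.02. Ccr3 had at most 2 fragments in any library, where the 0.1 added to FPKM holds the difference near 0. Further out, Cxcr6 had -0.68 with every I/R heart below every sham heart, and Xcr1 had 0.30 with overlap.

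Of the 13 other receptors listed, 12 had a row and 5 passed the filter, and 2 were called higher, where 25.5% of all genes tested were. Ccrl2, an atypical receptor that presents chemerin, was at 1.83, 1.51 and 1.67 FPKM in sham and at 7.28, 5.69 and 4.91 FPKM in I/R hearts (log2 difference 1.76, SE 0.229, limma adjusted p = 0.0022).

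Ackr3, a scavenging receptor of Cxcl12, was between 3.20 and 3.56 FPKM in sham and between 8.53 and 9.44 FPKM in I/R hearts and rose (log2 difference 1.42, SE 0.202, limma adjusted p = 0.0029). Ackr1, which carries chemokines across venular endothelium, had all I/R hearts above the sham hearts and did not pass (0.78, SE 0.284, limma adjusted p = 0.059, and 0.039, called higher, with the replicate block). Ackr2, a scavenger of inflammatory CC chemokines, overlapped between groups (0.39, SE 0.32, limma adjusted p = 0.37). Signs of Ccrl2, Ackr3, Ackr1 and Ackr2 turned when libraries were centred on the cardiomyocyte markers, and that of Ackr2 also when the mitochondrial mRNAs were left out.

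The genes around this axis were read from 6 lists with 91 genes, which were chosen with earlier results of these data known. Of the 86 with a row, 59 passed the filter, 23 were called higher and 2 lower. Over all genes tested, 25.5% were called higher and 7.36% lower. The median log2 difference of the 59 was 0.61, beside 0.29 for all genes tested. Of the 23 called higher, 9 (Ccl17, Fos, Icam1, Il1b, Il6, Relb, Sele, Selp and Tnfaip3) kept their sign under every alternative in which they were tested, and the other 14 turned when libraries were centred on the cardiomyocyte markers.

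**Figure D3:**
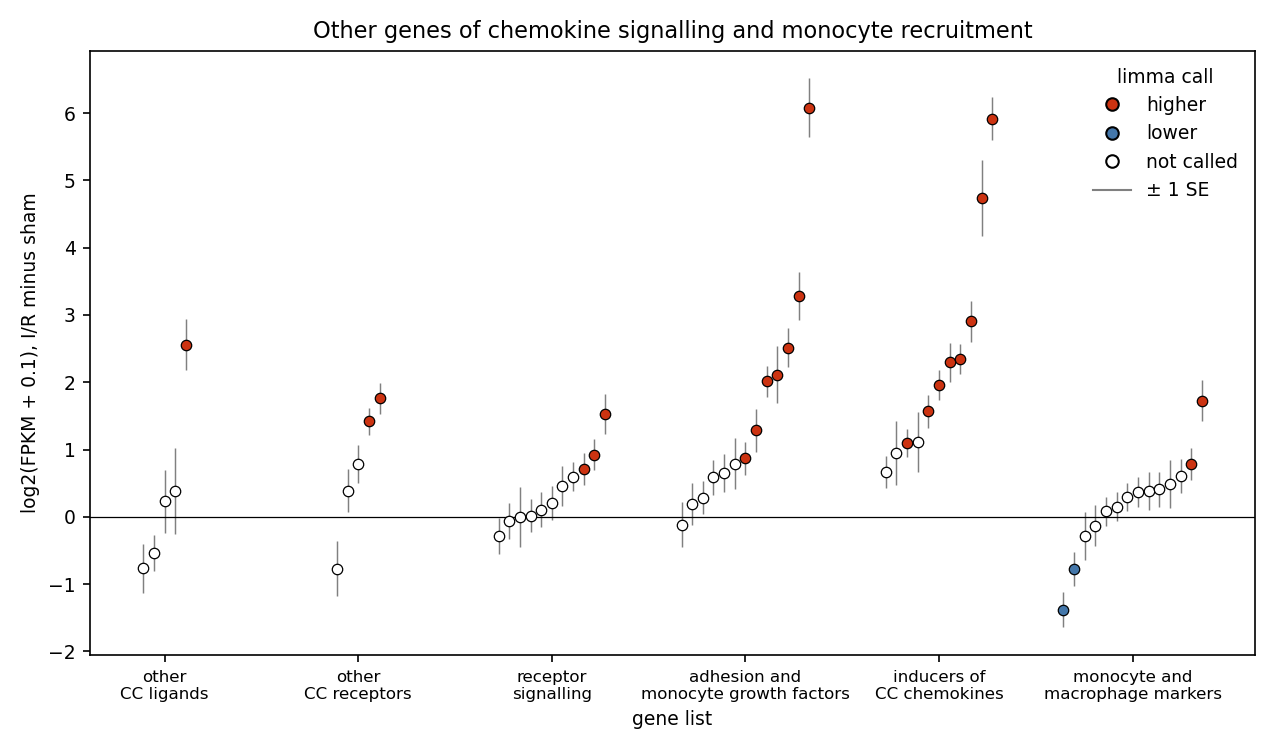
Log2 differences (I/R minus sham, log2(FPKM + 0.1), error bars 1 SE from limma) of the 59 tested genes of 6 lists, red where called higher, blue where called lower and white where not called. Among the 23 called higher, the inducers (8) and the adhesion and growth factor genes (7) hold the most, and both genes called lower are monocyte and macrophage markers. Centred on the cardiomyocyte markers, 14 of the 23 turn in sign.

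Among inducers of CC chemokines, 14 genes had a row, 11 passed the filter and 8 were called higher, beside 25.5% of all genes tested. Il6, a cytokine of the acute phase, was at 0.0290, 0 and 0 FPKM in sham and at 5.12, 6.12 and 8.60 FPKM in I/R hearts (log2 difference 5.91, SE 0.32, limma adjusted p = 1.6e-05). Il1b, the inflammasome cytokine that induces Ccl2, was between 0.634 and 0.773 FPKM in sham and between 3.63 and 7.70 FPKM in I/R hearts (2.90, SE 0.304, limma adjusted p = 0.00084). Tnf was not tested, being under the filter, and its groups overlapped at 0.295, 0.274 and 0.692 FPKM against 0.354, 0.811 and 0.0956 FPKM.

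The NF-kB subunit genes Relb, Nfkb2, Nfkb1 and Rela were all called higher, with log2 differences of 2.35, 1.95, 1.57 and 1.10 (limma adjusted p from 0.0005 to 0.0057). Tnfaip3, a feedback inhibitor of NF-kB, was also called (2.30, SE 0.293, limma adjusted p = 0.0021). Fos, an AP-1 subunit, spread widely over the I/R hearts, at 50.7, 8.74 and 9.81 FPKM against 0.420 to 0.611 FPKM in sham (4.74, SE 0.562, limma adjusted p = 0.0014). Jun, its partner, was not called (1.12, SE 0.449, limma adjusted p = 0.082, and 0.0049, called higher, with the replicate block).

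Of 16 adhesion and monocyte growth factor genes, all with a row, 13 passed the filter and 7 were called higher, beside 25.5% of all genes tested. Selp, the endothelial and platelet selectin that starts leukocyte rolling, was at 0.0279, 0.0650 and 0.209 FPKM in sham and at 7.97, 10.5 and 23.4 FPKM in I/R hearts (log2 difference 6.08, SE 0.44, limma adjusted p = 0.00014). Sele, the endothelial selectin, rose by 3.28 (SE 0.362, limma adjusted p = 0.0011). Icam1 and Vcam1, the endothelial ligands of leukocyte integrins, rose by 2.52 (SE 0.286, limma adjusted p = 0.0012) and by 2.11 (SE 0.426, limma adjusted p = 0.007).

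Csf1, the growth factor of monocytes and macrophages, went from between 2.10 and 2.60 FPKM in sham to between 7.88 and 12.0 FPKM in I/R hearts (log2 difference 2.01, SE 0.234, limma adjusted p = 0.0013). Its receptor Csf1r was at 3.35, 4.24 and 4.19 FPKM in sham and at 4.73, 3.67 and 4.10 FPKM in I/R hearts and was not called (0.08, SE 0.219, limma adjusted p = 0.8). Mif and Itgb1 were the other genes of the list called higher, at 1.28 (limma adjusted p = 0.014) and 0.87 (limma adjusted p = 0.024). Csf1, Mif and Itgb1 turned in sign when centred on the cardiomyocyte markers, and Itgb1 also under quantile normalization. Without sham replicate 3 neither Mif nor Itgb1 was called, and the calls were also lost for Mif without sham replicate 2 and for Itgb1 without I/R replicate 2 (limma adjusted p up to 0.064 for Mif and 0.1 for Itgb1).

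Other CC ligands gave 1 call, where 25.5% of all genes tested were called higher. Of 15 listed, 12 had a row and 5 passed the filter, and Ccl17, a ligand of Ccr4 made by dendritic cells and macrophages, was at 0.318, 1.08 and 0.360 FPKM in sham and at 3.64, 3.25 and 3.60 FPKM in I/R hearts (log2 difference 2.56, SE 0.378, limma adjusted p = 0.0031). Its value stood on 7, 28 and 9 fragments against 70, 67 and 70. Of 15 receptor signalling genes with a row, 11 passed the filter and 3 were called higher, where 25.5% of all genes tested were. These were Gnai3 (1.53), Gnai2 (0.92) and Rac1 (0.71), which encode 2 inhibitory G protein subunits and a small GTPase of cell migration. The call of Rac1 was lost in each of the 6 fits that left out a library (limma adjusted p from 0.061 to 0.15), and that of Gnai2 without sham replicate 3 (limma adjusted p = 0.07). Gnai2 and Rac1 turned in sign under quantile normalization, all 3 turned when centred on the cardiomyocyte markers, and Rac1 also without the mitochondrial mRNAs.

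Monocyte and macrophage markers moved in both directions. All 17 had a row, 14 passed the filter, 2 were called higher and 2 lower, beside 25.5% and 7.36% of all genes tested. The summed FPKM of the list was between 95.4 and 112 in sham and between 121 and 148 in I/R hearts. Lyz2 gave the largest part of that sum, at 32.7 to 52.5 FPKM in sham and 45.6 to 61.4 FPKM in I/R hearts. It overlapped between groups and was not called (limma adjusted p = 0.24). Cd14, the lipopolysaccharide co-receptor of monocytes, went from 1.14, 2.42 and 1.65 FPKM in sham to 5.26, 7.46 and 4.82 FPKM in I/R hearts (log2 difference 1.73, SE 0.299, limma adjusted p = 0.0043). C1qb, a complement component made by macrophages, was the other gene called higher (0.78, SE 0.239, limma adjusted p = 0.032), and its sign turned under 3 of the rescalings. The C1qb call was lost in 4 of the 6 fits that left out a library, those without sham replicate 2 or 3 and without I/R replicate 2 or 3 (limma adjusted p up to 0.13).

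The 2 genes called lower were Cd163 and Mrc1, which resident macrophages express, and they do not stand for the list. Over its 17 markers, every I/R heart was above every sham heart in 7 and below in 3, beside 37.2% and 13.0% of all genes tested. Cd163, the haemoglobin scavenger receptor, was at 2.20, 3.58 and 2.21 FPKM in sham and at 0.908, 0.869 and 1.03 FPKM in I/R hearts (log2 difference -1.38, SE 0.262, limma adjusted p = 0.0057). Mrc1, the mannose receptor, fell by 0.77 on the log2 scale (SE 0.252, limma adjusted p = 0.04), and this call was kept only without I/R replicate 2 among the 6 fits that each left out a library (limma adjusted p from 0.038 to 0.12). Cd68, a lysosomal protein of macrophages, was not called (0.30, SE 0.207, limma adjusted p = 0.29).

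Itgam and Cx3cr1, which mark monocytes, were under the filter, Itgam at 0.163 to 0.351 FPKM in sham and 0.437 to 0.556 FPKM in I/R hearts and Cx3cr1 at most at 0.313 FPKM. The Ccr2 to Csf1r ratio was between 0.196 and 0.380 in sham and between 0.0596 and 0.123 in I/R hearts, so the lower Ccr2 values were seen beside Csf1r values that overlapped between groups. The part of monocyte content in the Ccr2 difference was not tested.

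Patterns over the 6 libraries were compared as the root mean square difference of log2(FPKM + 0.1) after the sham mean of each gene was subtracted, among 9111 other genes with a mean of at least 1 FPKM for Ccl2 and 9112 for Ccr2. The 5 genes nearest to Ccl2 were Cxcl2 (0.576), Selp (0.589), Fgf23 (0.793), Il6 (0.858) and Cxcl1 (0.968). Cxcl1 and Cxcl2 are neutrophil attractants, and Cxcl1 reached 56.0, 99.3 and 102 FPKM in I/R hearts against 0.540 to 0.976 FPKM in sham. Nearest to Ccr2 were Gimap9 (0.111), a lymphocyte GTPase gene, Fzd6 (0.186), a Wnt receptor, Rasa4 (0.212), a Ras regulator, and 2 genes without a symbol, ENSRNOG00000066023 (0.165) and ENSRNOG00000065897 (0.199). All share the same 6 libraries, so the likeness describes these libraries.

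Because FPKM are shares of a library, the differences were also read relative to the median of all genes under each of 6 scalings. That median was 0.29 as deposited, 0.48 in TPM, 0.04 when centred on the median of a library, -0.02 after quantile normalization, -0.46 without the mitochondrial mRNAs and -1.93 when centred on the cardiomyocyte markers. Relative to it, Ccl2 stood from 5.03 to 5.28 above, Ccl7 from 2.70 to 2.75 above and Ccl20 from 0.68 to 1.26 above, while Ccr2 lay between -1.68 and -1.30 and Ccl5 between -1.16 and -0.67. Ccl3 and Ccl11 changed sides of the median, and Ccl4 stood from 0.04 to 0.29 above it.

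**Figure D4:**
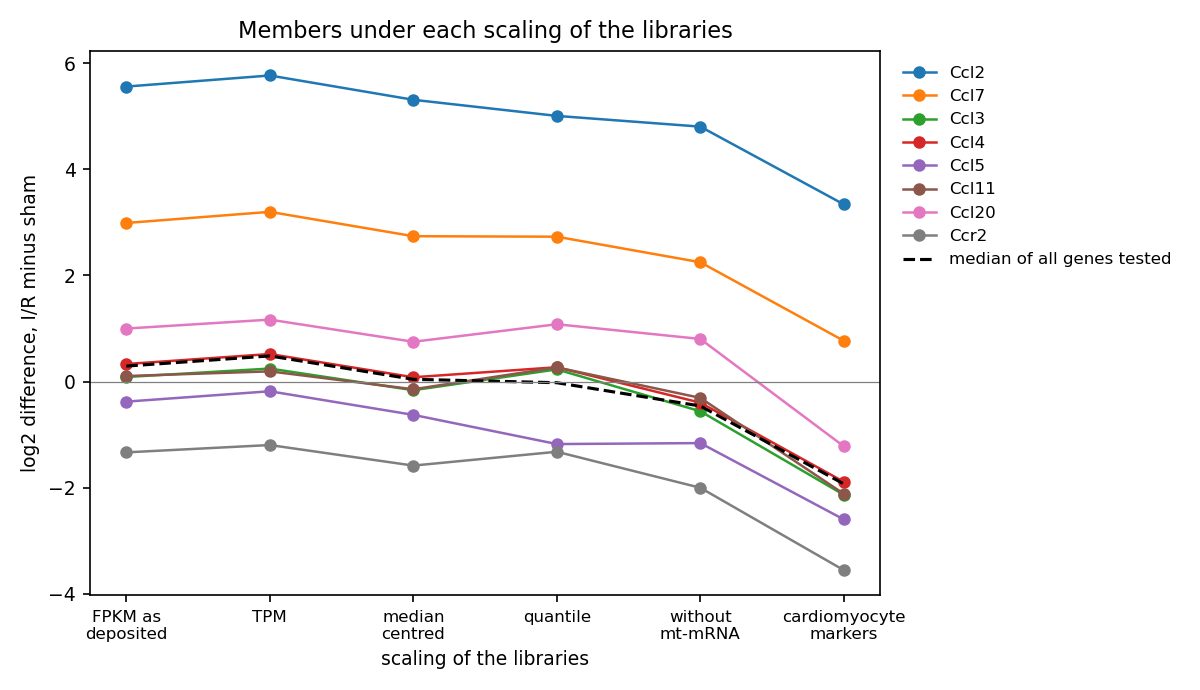
Log2 difference (I/R minus sham) of the 8 genes under 6 scalings of the libraries, with the median of all genes tested as a dashed line. Ccl2 and Ccl7 stay above 0 in all 6, and Ccr2 and Ccl5 stay below. Ccl20, Ccl3, Ccl4 and Ccl11 fall below 0 when centred on the cardiomyocyte markers. Ccl4, Ccl3 and Ccl11 do so also without the mitochondrial mRNAs, and Ccl3 and Ccl11 also when centred on the median.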

How the data were processed

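Myocardial RNA of 3 sham rats and 3 I/R rats was analysed. The authors deposited 1 table of FPKM per gene and sample, and the submitters' processing notes name STAR and HTSeq. Versions, genome build, annotation and strand setting are not given in the sources used here. Columns were matched to samples by name, and the 30452 rows (7092 without a symbol) were summed by symbol to 28293 genes.

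Log2(FPKM + 0.1) of the 10942 genes with a mean of at least 0.5 FPKM was compared with limma 3.58.1 in R 4.3.3 (intensity trend, Benjamini-Hochberg over all genes tested, called under an adjusted p of 0.05). On simulated data the test was checked for known changes. Fold changes are on that scale and understate low genes. Replicates are separate rats by their labels. A two-sided exact permutation test of 3 against 3 cannot give a p under 0.1, so none was used.

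Fragments were recovered as whole multiples (tolerance 0.01) of the FPKM of 1 fragment. All 600 genes tried moved in whole steps, and 99.2% of 594 implied gene lengths were whole at the totals used. Exact Poisson intervals cover counting error only.

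Replicate numbers come from the labels. Deviations of same-numbered samples correlated at 0.203, 0.117 and 0.118, each over the 0.1 taken as a sign of pairing. Sham replicate 3 and I/R replicate 2, of unlike number, reached 0.120, so these correlations do not show that the replicates were paired. The labels do not pair a sham rat with an I/R rat. A limma fit blocked on replicate number accompanies the unblocked one.

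Members and lists were chosen with earlier results of these data known. Named were all members, 15 pathway genes whatever their values (1 is not reported here), the up to 5 largest calls of each list in either direction with a mean of at least 1 FPKM, and the 5 genes most like Ccl2 and Ccr2. Other genes named give a list count, a list sum or a neighbour and were chosen after their values were seen. Promoters and gene order are from RefSeq (GRCr8), read by symbol. The alternatives were pseudocounts of 1 and 0.01, no filter or a filter of 5 FPKM, 5 rescalings, no trend, the block, leaving out each library, the highest row of a symbol, and a threshold of 0.01.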

Additional observations from a re-analysis of the deposited data

How the results depend on the processing

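Ccl2, Ccl7, Ccr2 and Ccl5 kept the sign of their log2 difference under every alternative run. Centred on the cardiomyocyte markers, no member had every I/R rat above every sham rat, the median log2 difference of the members was -2.004, and 3 pathway genes were called higher and 41 lower. Of all 10942 genes tested, 36 were called higher and 8827 lower in that scaling, so the pathway counts move with those of the whole table. In that scaling Ccl4 reversed to -1.89 and Ccl20 to -1.22, and without the mitochondrial mRNAs Ccl4 reversed to -0.40 while 13 pathway genes were called higher and 8 lower. Without those mRNAs, 793 of all genes tested were called higher and 2857 lower. The median of the members was -0.03 when centred on the median of a library and -0.35 without the mitochondrial mRNAs. A filter at 5 FPKM left 23 pathway genes, with 15 called higher and 0 lower, beside 1892 and 166 of the 3784 genes that it left. The count called lower, 2 in the reported fit, was 1 with no filter, in TPM, without the trend and at a threshold of 0.01, and 4 after quantile normalization. After quantile normalization 1559 of all genes tested were called lower, beside 805 in the reported fit. Centring on the cardiomyocyte markers and leaving out the mitochondrial mRNAs each moved all genes of a library together. The median of all genes tested was then -1.93 and -0.46. Relative to that median, Ccl4 stayed from 0.04 to 0.29 above and Ccl20 from 0.68 to 1.26 above over the 6 scalings. Beyond this shift and the fewer genes that the 5 FPKM filter leaves, the cause of these moves was not tested.

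Leaving out each library in turn gave 3 to 4 members with every I/R rat above, a member median of 0.09 to 0.54, 18 to 23 pathway genes called higher and 1 to 2 called lower. Without sham replicate 3, the heart with the highest sham Ccl2, Ccl7 and Ccr2, 18 were called higher and 1 lower. Of all genes tested, 1528 were called higher and 359 lower in that fit, beside 2790 and 805 in the reported fit. The call of Mrc1 was lost in 5 of the 6 fits that left out a library, and of the 23 pathway genes called higher 18 were called in all 6.

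With the replicate block, 25 pathway genes were called higher and 3 lower, beside 3085 and 895 of all genes tested. All 25 reported calls were kept, and Ackr1, Jun and Ccl21 were added. With 3 rats a group, the members with the fewest fragments, Ccl11 (at most 12 a library) and Ccl20 (at most 7), cannot show small differences.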

Other observations

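Other cell type markers were read beside the chemokines, with calls from limma. Among 8 neutrophil markers, all with a row, 4 passed the filter and 3 were called higher, where 25.5% of all genes tested were. These were S100a8 (log2 difference 1.60, SE 0.397, limma adjusted p = 0.014), S100a9 (1.89, SE 0.36, limma adjusted p = 0.0057) and Mmp8 (2.64, SE 0.418, limma adjusted p = 0.0035). The summed FPKM of the 8 was between 12.9 and 17.7 in sham and between 28.3 and 83.5 in I/R hearts. I/R replicate 1, the I/R heart with the least Ccl2, was also the lowest of its group in S100a8, S100a9 and Mmp8. The call of S100a8 was lost without sham replicate 2 (limma adjusted p = 0.064). Of 3 granule genes, Mpo was listed at 0 in all 6 libraries, Elane had 0 fragments in each sham library and 4, 0 and 1 in I/R replicates 1 to 3, and Camp had 0 in each sham library and 1, 14 and 1 in I/R replicates 1 to 3.

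Among 8 mast cell and eosinophil markers, 6 passed the filter and 2 were called lower, where 7.36% of all genes tested were. These were Cpa3, the mast cell carboxypeptidase (log2 difference -1.63, SE 0.484, limma adjusted p = 0.029), and Ms4a2, a chain of the IgE receptor (-1.21, SE 0.393, limma adjusted p = 0.04). The Ms4a2 call was lost in each of the 6 fits that left out a library (limma adjusted p from 0.059 to 0.12), and the Cpa3 call in 4, those without sham replicate 1 or 2 and without I/R replicate 1 or 3 (limma adjusted p up to 0.081). The summed FPKM of the list was between 19.5 and 48.9 in sham and between 11.9 and 19.6 in I/R hearts, with the highest value of Cpa3, 13.0 FPKM, in sham replicate 1. The eosinophil genes Epx and Prg2 were at or near 0, beside the low Ccl11 and Ccr3.

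Of 6 fibroblast markers 1 was called higher, where 25.5% of all genes tested were. This was Col1a1 (log2 difference 0.91, SE 0.222, limma adjusted p = 0.013), a call lost without sham replicate 3 and without I/R replicate 3 (limma adjusted p up to 0.06). None of 7 endothelial markers was called, where 25.5% of all genes tested were called higher and 7.36% lower. They were not all level. Kdr had every I/R heart above every sham heart (0.72, SE 0.251, limma adjusted p = 0.05), Tek had every I/R heart below (-0.55, SE 0.219, limma adjusted p = 0.081), and the others overlapped. Selp, Sele, Icam1 and Vcam1, which endothelium can express, were called higher. Of 4 B cell markers 1 was tested and not called, and the only red blood cell marker with a row was not called.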
